A study of Mus musculus with 9 samples.

Results

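The WNT inhibitors and feedback genes described here are 10 genes, *Dkk1*, *Dkk2*, *Dkk3*, *Frzb*, *Sfrp1*, *Sfrp2*, *Wif1*, *Axin2*, *Nkd1* and *Lef1*, taken by gene symbol from the 32289 features that each of the 9 count matrices lists. All 10 symbols were found, and the rule itself uses no measured value. The cells came from pairs of forelimb buds of single mouse embryos of the Swiss Albino background at embryonic stage E10.75, with 37–39 somites counted, profiled by droplet-based 3′ single-cell RNA sequencing, in which a unique molecular identifier (UMI) marks each captured transcript. There were 3 libraries of wild-type (Wt) embryos, 3 of *EC1CRM8*Δ/Δ (*E1C8*Δ/Δ) embryos and 3 of *EC1CRM5*Δ/Δ (*E1C5*Δ/Δ) embryos. Both mutant alleles are homozygous and share the deletion of EC1, a cluster of limb enhancers of *Grem1*, the gene of a secreted protein that binds and blocks BMP signalling molecules. *E1C8*Δ/Δ embryos lack the CRM8 element in addition, and *E1C5*Δ/Δ embryos lack CRM5, so no group carries the EC1 deletion alone. Each library holds 1 embryo, and by *Xist* and Y-linked transcripts all 3 Wt embryos were male whereas 2 of 3 embryos of each mutant were female. In mesenchyme, *Xist* was at 21.8 CPM (UMIs per 1000000) in Wt replicate 1 and 7.61 CPM in *E1C8*Δ/Δ replicate 3, against at most 0.102 CPM in the other male libraries, and Y-linked transcripts were at 3.18 CPM in *E1C8*Δ/Δ replicate 1, against at most 0.0409 CPM in the other female ones. The source of these traces was not tested.

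WNT ligands bind Frizzled receptors and LRP coreceptors, which stabilizes β-catenin and switches on target genes through transcription factors of the TCF/LEF family. DKK1 blocks the LRP coreceptors, DKK2 binds the same coreceptors, and DKK3 is a divergent member of this family whose part in WNT signalling is unclear. FRZB, SFRP1 and SFRP2 carry a Frizzled-like domain and bind WNT ligands outside the cell, as WIF1 does through a different domain. AXIN2, a scaffold of the complex that degrades β-catenin, and NKD1, which binds Dishevelled, are induced by the pathway and dampen it, and LEF1 is one of its transcription factors. In the limb bud, WNT ligands from the ectoderm keep the underlying mesenchyme proliferating and undifferentiated, and mice without *Dkk1* form malformed digits.

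*Dkk1* and *Dkk2* were the members with called differences between the genotypes in the whole mesenchyme, and their promoters are therefore shown (RefSeq, build GRCm38.p6, 250 bases before to 50 bases after the annotated start, written 5′ to 3′ on the strand of the gene). *Dkk1* lies on chromosome 19 (minus strand) with its promoter at chr19:30549447-30549746, and *Dkk2* on chromosome 3 (plus strand) with its promoter at chr3:132085042-132085341. Capitals mark, on either strand, words that TCF/LEF factors can bind, here CAAAG preceded by AA, AT, TA or TT.
*Dkk1*: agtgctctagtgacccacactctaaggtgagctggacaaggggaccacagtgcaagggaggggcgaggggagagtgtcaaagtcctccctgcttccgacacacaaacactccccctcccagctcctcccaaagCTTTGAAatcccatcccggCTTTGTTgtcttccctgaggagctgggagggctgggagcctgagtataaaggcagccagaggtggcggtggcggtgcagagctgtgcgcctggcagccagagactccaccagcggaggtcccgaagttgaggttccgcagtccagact
*Dkk2*: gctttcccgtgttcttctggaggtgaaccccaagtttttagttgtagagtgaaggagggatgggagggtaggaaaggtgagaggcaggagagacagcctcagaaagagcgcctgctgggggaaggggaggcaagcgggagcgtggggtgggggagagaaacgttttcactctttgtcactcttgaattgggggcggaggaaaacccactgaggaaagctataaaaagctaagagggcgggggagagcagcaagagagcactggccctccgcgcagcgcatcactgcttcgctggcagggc
The *Dkk1* promoter holds 2 such words, both on the opposite strand and without overlap, whose first bases lie 117 and 98 bases before the start, and the *Dkk2* promoter holds none. Of all 32851 promoters of this length, 16.9% hold at least 1 of the 4 words and 1.94% hold 2 or more. Promoters were found for 8 of the 10 members (11 promoters, not *Dkk3* and *Sfrp1*), and the only other match was 1 word in 1 of the 4 *Lef1* promoters. These matches describe the letters and are not evidence of binding.

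Cells were kept that had more than 2500 genes, fewer than 200000 UMIs and under 10% mitochondrial UMIs, which left 604–9917 cells per library before likely doublets were removed. Marker genes then gave 36346 mesenchymal cells (478–6999 per library), 2775 muscle progenitors, 594 epithelial, 576 endothelial and 2186 erythroid cells, and none of the 10 members was used as a marker. The markers were highest in their own gate for 5 of 5 mesenchymal, 6 of 6 muscle, 8 of 9 epithelial, 9 of 9 endothelial and 7 of 7 erythroid genes. Levels are given as CPM, the UMIs of a gene per 1000000 UMIs of the gated cells of 1 library, and mesenchymal sums held 16664648–261784453 UMIs. Wt replicate 3 (739 mesenchymal cells) and *E1C8*Δ/Δ replicate 1 (478 cells) were the smallest libraries, and no pair of libraries shared more than 28 cell barcodes. *Grem1*, the targeted gene, measured 43.2, 28.9 and 33.1 CPM in Wt mesenchyme, 11.8, 11.1 and 13.8 CPM in *E1C8*Δ/Δ and 17.1, 15.7 and 24.96 CPM in *E1C5*Δ/Δ, so every mutant library was below every Wt library. Its log2 fold change against Wt was −1.53 ± 0.17 (SE) for *E1C8*Δ/Δ, and the *E1C5*Δ/Δ change was −0.81 ± 0.17 (edgeR quasi-likelihood test, adjusted p = 0.00163 and 0.0387).

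The first question was which cells hold the transcripts of the 10 genes. Mesenchyme was the main site for most of the secreted inhibitors, whereas *Dkk2* was highest in muscle progenitors and *Nkd1* and *Lef1* differed by at most 1.15-fold between mesenchyme and muscle. The test compared sums of each lineage with mesenchyme within the same library, over 13763 features. Of the 40 comparisons of a member, 38 passed the adjusted p threshold of 0.05, and the text that follows gives beside each count the percentage of all features tested that passed in that direction.

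In muscle progenitors, the migrating cells that form the limb muscles, *Dkk2* measured 28.0–49.0 CPM in the 9 libraries (median 33.2), against 3.33–7.76 CPM (median 5.63) in mesenchyme. The ranges did not overlap, and the fitted level in muscle was 6.96-fold higher (log2 2.80 ± 0.15, edgeR adjusted p = 8.16e-19). *Nkd1* was slightly higher in muscle (log2 0.20 ± 0.08, adjusted p = 0.0341), so 2 of 10 members were higher there against 21.3% of all features. *Dkk1*, *Frzb*, *Sfrp1*, *Sfrp2*, *Wif1* and *Axin2* were lower, 6 of 10 against 23.2% of all features, and *Dkk3* and *Lef1* did not pass the test. *Dkk1* measured 0–4.83 CPM in muscle (median 0.732) and 10.9–35.4 CPM in mesenchyme (median 16.4). Its median in muscle was at the level of erythroid cells (0.122–1.02 CPM), which is read as background, so no fold is given.

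In epithelium all 10 members were lower than in mesenchyme, against 27.6% of all features. *Lef1*, at 36.4–71.0 CPM (median 53.5) in the 6 libraries that had at least 20 epithelial cells, and *Axin2*, at 18.4–36.3 CPM (median 29.8), came nearest to the mesenchymal level, with log2 differences of −0.52 ± 0.12 and −0.86 ± 0.12. Among the epithelial cells, 82 carried at least 2 markers of the apical ectodermal ridge, the distal signalling epithelium that secretes fibroblast growth factors, and they are described without a test because only 1 library held 20 of them. Pooled over the libraries, *Axin2* measured 70.0 CPM in ridge cells (95% Poisson interval 60.2–81.0, which covers counting error only) and 20.6 CPM (18.3–23.2) in the other epithelial cells. *Lef1* measured 90.9 CPM (79.7–103.3) and 46.6 CPM (43.0–50.5) in these 2 sets, and *Dkk1* 20.5 CPM (15.4–26.8) and 2.77 CPM (1.95–3.81). *Sfrp1* had the opposite order, with 11.2 CPM (7.52–16.1) in ridge cells and 41.8 CPM (38.4–45.4) outside. The feedback genes *Axin2* and *Lef1* and the inhibitor *Dkk1* were thus higher in the pooled ridge cells, as were *Nkd1*, *Frzb* and *Wif1* (values at the end), and *Sfrp1* was higher in the rest of the epithelium. Ridge cells stood at 135.4%, 117.3% and 129.1% of the pooled mesenchymal CPM for *Axin2*, *Lef1* and *Dkk1*, unlike the epithelium as a whole. The mesenchymal markers summed to 116.1–383.5 CPM in the epithelial gate. They were not counted for ridge cells apart, and the part of mesenchymal RNA in these values was not tested.

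In endothelium *Dkk2* was the single member with a higher level than in mesenchyme (1 of 10 against 34.1% of all features), at 2.33–15.6 CPM (median 7.53, 7 libraries), a 1.85-fold difference (adjusted p = 0.000851). The other 9 were lower, against 37.2% of all features. In erythroid cells all 10 were lower, against 43.3% of all features, by 5.01-fold (*Axin2*) to 13.9-fold (*Sfrp1*) in the fit, which scales libraries by TMM. In plain CPM pooled over the libraries, of which Wt replicate 1 gave 849 of the 2186 erythroid cells, they reached between 2.43% (*Sfrp1*) and 6.69% (*Axin2*) of the mesenchymal level. The 2 scales thus place the erythroid level differently, and no exact limit is drawn from it. Free RNA in the droplets can leave such a signal in any cell, and levels like those of erythroid cells are read as background. In endothelium *Wif1*, *Dkk1*, *Sfrp2*, *Sfrp1* and *Frzb* were at 4.07–6.53% of their pooled mesenchymal CPM and are read in this way, so no fold is given for them. The others were lower by 2.22-fold (*Lef1*), 3.40-fold (*Dkk3*), 4.83-fold (*Nkd1*) and 8.37-fold (*Axin2*). The 5 mesenchymal markers summed reached 29.0–112.5 CPM in erythroid cells, against 1466–1840 CPM in mesenchyme. The 9 epithelial markers in the erythroid gate differed widely, at 196.7 CPM in Wt replicate 1 and 4.07 CPM in Wt replicate 2. They were at 5.42–6.77 CPM in *E1C8*Δ/Δ and 113.6–176.3 CPM in *E1C5*Δ/Δ. The erythroid gate was thus not uniform between libraries and genotypes, so its range is an approximate guide to background. The source was not tested.

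**Figure D1:**
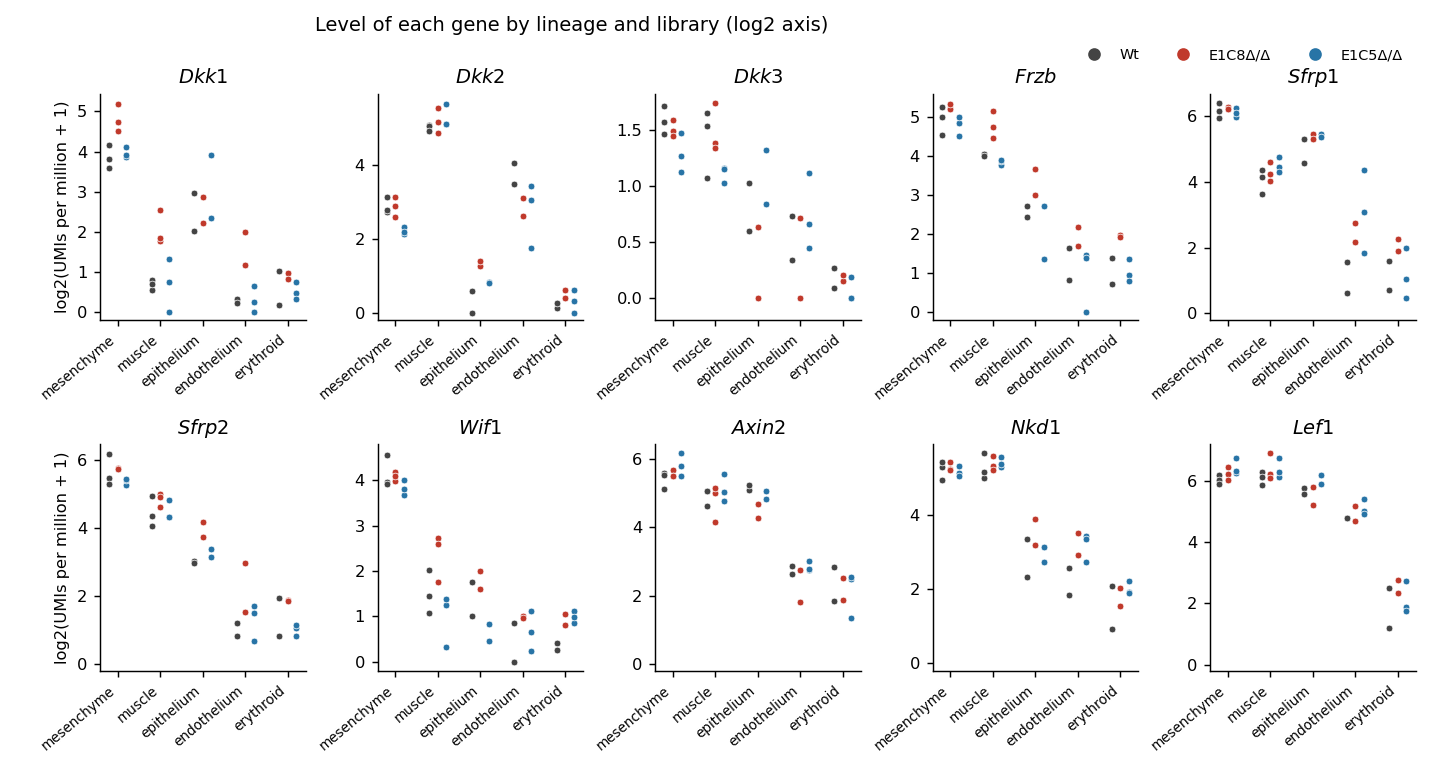
Level of each gene (log2 of CPM + 1) in 5 lineages, with 1 point per library that had at least 20 cells of the lineage and the colour giving the genotype. *Dkk2* is highest in muscle, *Nkd1* and *Lef1* are at similar levels in mesenchyme and muscle, and the erythroid points are low for all 10 genes.

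The second question was where within the mesenchyme each gene was expressed. Mesenchymal cells were assigned to 11 states by the study's signature genes, with the 10 members removed from the signatures. The states are written with "-like" because the assignment is a score: C1-like to C3-like cells carry *Sox9* and *Col2a1*, markers of osteochondrogenic progenitors, P1-like to P4-like cells carry *Msx1*, a marker of undifferentiated progenitors, and M1-like to M4-like cells carry other mesenchymal signatures. Of the cells, 6.441% stayed unassigned and in 8.994% the best score led by under 0.1 (38.02% by under 0.5), so the borders are not sharp. Of the signature genes, 4 of 8 (M1-like) and 4 of 7 (M4-like) were highest in their own state at the low end, with 6 of 9 for C1-like and 7 of 11 for P3-like cells, and 7 of 8 (M3-like) at the high end. The study chose the signatures on these samples and lists *Dkk1* among the genes of M2 and P2 and *Frzb* among those of M4, so high levels there are not independent evidence. Each state was compared with the mean of the other 10 within the same library, and 92 of the 110 comparisons of a member passed, against 50.1% over all features. *Dkk3* was called least often.

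*Dkk1* was called higher than in the other states in 5 of the 11 states and lower in 6 (edgeR, all 9 libraries). In Wt it measured 43.5, 49.8 and 47.9 CPM in M2-like cells (signature genes *Osr1*, *Tbx3* and *Tbx2*) and 56.3, 48.0 and 31.4 CPM in P2-like cells, the state with *Shh*, *Hand2* and *Bmp4*. P3-like, P1-like and P4-like cells followed with Wt means of 31.2, 27.1 and 8.79 CPM, while M4-like, C3-like, M3-like and C1-like cells had means between 0.694 and 1.43 CPM. Neighbours in the order did not overlap in 3 of 10 steps. The fitted differences over all 9 libraries were log2 3.82 ± 0.14 in P2-like, 3.01 ± 0.15 in M2-like and 1.40 ± 0.21 in P4-like cells against the other states (adjusted p at most 7.803e-09). The low end lies close to the 0.122 and 1.02 CPM of *Dkk1* in erythroid cells of Wt replicates 1 and 2, so expression in C1-like and M3-like cells was not distinguishable from free RNA.

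*Dkk2* followed another pattern, being highest in P1-like cells (22.8, 14.9 and 18.9 CPM in Wt), which carry *Pax1* and *Alx4*, and next in M2-like cells (9.42, 11.1 and 14.7 CPM). Its lowest Wt means were in M4-like (1.48 CPM) and C1-like cells (1.499 CPM). *Dkk3* was low throughout, between 1.10 CPM in P1-like and 3.42 CPM in C1-like cells, and no step between neighbouring states separated the Wt libraries. Its tests passed in 3 of 11 states, higher in C1-like (log2 1.01 ± 0.12) and lower in C3-like and P1-like cells.

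The 3 SFRP-type genes divided the mesenchyme differently. *Frzb* was highest in M4-like cells (53.5, 43.3 and 65.7 CPM), which carry *Hoxa11* and *Hoxd11*, and nearly as high in P3-like cells (mean 52.5 CPM) and P4-like cells (48.7 CPM), the state with *Hoxa13* and *Hoxd13*. It was lowest in C3-like cells, at 4.72 and 3.64 CPM in the 2 Wt libraries with enough cells. *Sfrp1* was high where *Frzb* was low, with 197.2 and 199.3 CPM in C3-like cells and 190.0, 171.5 and 222.8 CPM in C2-like cells, and 7.71, 8.21 and 11.52 CPM in P4-like cells. Across the 11 states the correlation of the Wt means on the log2 scale was −0.81 for *Frzb* and *Sfrp1* and −0.79 for *Frzb* and *Dkk2*, a description over states that share libraries. *Sfrp2* was more even, between 19.1 CPM in P4-like and 87.8 CPM in C2-like cells, and its Wt replicate 3 stood above the other 2 Wt libraries in all 10 states that library gave. *Wif1* was highest in M3-like cells (36.2, 32.8 and 54.7 CPM), one of the 2 states with *Grem1* in the signature, and lowest in P4-like cells (2.54, 1.94 and 3.65 CPM).

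The feedback genes *Axin2*, *Nkd1* and *Lef1* shared the low end of their order. All 3 were lowest in C1-like cells, with Wt means of 10.9, 14.7 and 28.7 CPM, and next lowest in C2-like cells for *Axin2* (17.0 CPM), *Nkd1* (21.1 CPM) and *Lef1* (44.9 CPM). *Lef1* peaked in P2-like cells at 137.5, 112.4 and 82.3 CPM and was above the mean of the other states in all 4 *Msx1*-positive states. *Nkd1* peaked in P1-like cells at 58.1, 69.2 and 65.5 CPM. *Axin2* had its highest Wt mean in C3-like cells at 67.1 and 65.6 CPM, without Wt replicate 3, although in the 9 highest states of *Axin2* each overlapped with the next. The fit within libraries placed *Axin2* higher in M3-like (log2 0.74 ± 0.06) and P2-like cells (0.69 ± 0.07) than in C3-like cells (0.38 ± 0.07). Its peak is therefore not settled. Their pairwise correlations over the 11 states were 0.78–0.85, whereas *Dkk3* correlated with them at −0.77 to −0.70. The feedback genes were therefore low in C1-like and C2-like cells, where *Sfrp1* and *Sfrp2* were high, but not in C3-like cells, where *Sfrp1* was highest.

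**Figure D2:**
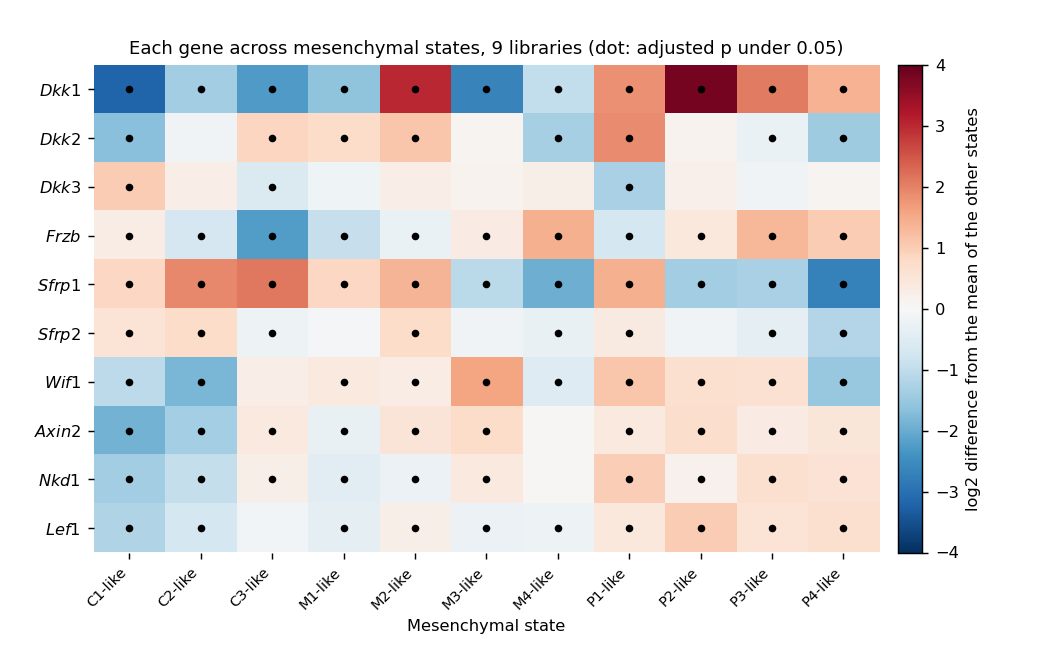
Heat map of the log2 difference of each gene (rows) between 1 mesenchymal state (columns) and the mean of the other states, fitted over 9 libraries, with a dot where the adjusted p was under 0.05. *Dkk1* reaches 3.82 in P2-like cells, *Frzb* and *Sfrp1* have opposite signs in every column but C1-like, and *Axin2*, *Nkd1* and *Lef1* are low in C1-like and C2-like cells.

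The features most like each member were found by Pearson r of log2(CPM + 1) in Wt over 16 gates, among 11215 autosomal features with at least 5 CPM in 1 gate. For *Dkk1* these were *Tbx2* (0.883), *Msx2* (0.832) and *Tbx3* (0.821), all of which are signature genes of 1 or more of the states. The top feature was *Apcdd1*, itself a membrane WNT inhibitor, for *Axin2* (0.920), *Slitrk6* for *Wif1* (0.924), *Scube3* for *Sfrp1* (0.947) and *H2-Q7* for *Frzb* (0.938). *Igsf3* came first for *Sfrp2* (0.966), *Xylb* for *Nkd1* (0.966), *Carm1* for *Lef1* (0.954), *Hsd11b2* for *Dkk3* (0.927) and *Micos10* for *Dkk2* (0.871). These values carry no test, since the gates share libraries and depth.

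The third question was whether the reduced *Grem1* dose of the mutants came with altered levels of the 10 genes in the whole mesenchyme. *Dkk1* was 1.99-fold higher in *E1C8*Δ/Δ and not detectably altered in *E1C5*Δ/Δ, *Dkk2* was lower in every *E1C5*Δ/Δ library without passing the test against Wt, and the other members mostly overlapped between genotypes. *Dkk1* measured 13.03, 10.95 and 16.8 CPM in Wt, 35.4, 25.8 and 21.7 CPM in *E1C8*Δ/Δ and 13.5, 16.4 and 14.2 CPM in *E1C5*Δ/Δ. All 3 *E1C8*Δ/Δ libraries were above all 6 other libraries. The log2 fold change of *Dkk1* in *E1C8*Δ/Δ against Wt was 0.99 ± 0.17 (SE, edgeR adjusted p = 0.0079), and that against *E1C5*Δ/Δ was 0.81 ± 0.17 (adjusted p = 0.0161). The second of these calls was lost without *E1C5*Δ/Δ replicate 3 (adjusted p = 0.0517) or *E1C8*Δ/Δ replicates 1 (0.0582) or 2 (0.0547). *Dkk1* was the only one of the 10 called in *E1C8*Δ/Δ against Wt, where 9.39% of all features were called. With embryo sex as a covariate the estimate was 0.97 and the adjusted p 0.0617, and since all Wt embryos were male the 2 factors are only partly separable.

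*Dkk2* measured 5.63, 5.87 and 7.71 CPM in Wt, 4.98, 7.76 and 6.38 CPM in *E1C8*Δ/Δ and 4.02, 3.33 and 3.51 CPM in *E1C5*Δ/Δ. All 3 *E1C5*Δ/Δ libraries were below all 6 others. The change against Wt was −0.75 ± 0.18 with an adjusted p of 0.0703, and the difference between *E1C8*Δ/Δ and *E1C5*Δ/Δ was 0.76 ± 0.18 (adjusted p = 0.0251). That difference lost its call when replicate 2 or 3 of either mutant was left out. The *E1C8*Δ/Δ against *E1C5*Δ/Δ comparison called 2 of the 10 genes, *Dkk1* and *Dkk2*, and 9.78% of all features.

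*Lef1* was above Wt (72.0, 64.3 and 58.2 CPM) in every *E1C5*Δ/Δ library (75.5, 78.1 and 105.6 CPM), with a log2 fold change of 0.46 ± 0.12 and an adjusted p of 0.0996. Its *E1C8*Δ/Δ libraries (86.4, 73.3 and 64.0 CPM) overlapped with both other groups. *Axin2* measured 47.2, 45.5 and 34.0 CPM in Wt and 54.2, 44.1 and 71.6 CPM in *E1C5*Δ/Δ, and its estimate of 0.47 ± 0.15 did not pass the test (adjusted p = 0.182). None of the 10 genes was called in *E1C5*Δ/Δ against Wt by edgeR, while 1.51% of all features were called. At an unadjusted p under 0.05 there were 4 members (*Axin2*, *Dkk2*, *Dkk3* and *Lef1*), against 13.8% of all features. DESeq2 called *Dkk2* and *Lef1* in this contrast (adjusted p = 0.00254 and 0.0164). Against the mean of both mutants no member was called by edgeR either (2.31% of all features), with 3 members at an unadjusted p under 0.05 against 19.4% of all features, and DESeq2 called *Dkk1* (adjusted p = 0.00557). The percentages are those of edgeR, and the share of all features called by DESeq2 is not given. On simulated counts of both mutants against Wt, DESeq2 recovered 85% of the changed genes with 41 false calls, and edgeR 78% with 12. Each method had its own single draw with its own changed genes, and the spread was that estimated by edgeR. These draws cannot rank the methods. Without a share over all features to read them against, the DESeq2 calls are not taken as support.

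*Frzb*, *Sfrp2* and *Wif1* showed no called difference in the whole mesenchyme. *Frzb* measured 31.2, 22.1 and 37.0 CPM in Wt, 36.4, 36.0 and 39.3 CPM in *E1C8*Δ/Δ and 21.7, 27.6 and 30.8 CPM in *E1C5*Δ/Δ, so the mutants were apart from each other but both overlapped with Wt. *Sfrp2* behaved alike, at 43.0, 38.4 and 71.5 CPM in Wt, where replicate 3 stood far above the rest. Without that library the *E1C8*Δ/Δ change of *Sfrp2* was 0.33 and passed the test (adjusted p = 0.0356), against 0.03 ± 0.17 with it. *Sfrp1*, *Nkd1*, *Wif1* and *Dkk3* had log2 fold changes between −0.40 and 0.04 in the 2 mutants against Wt.

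**Figure D3:**
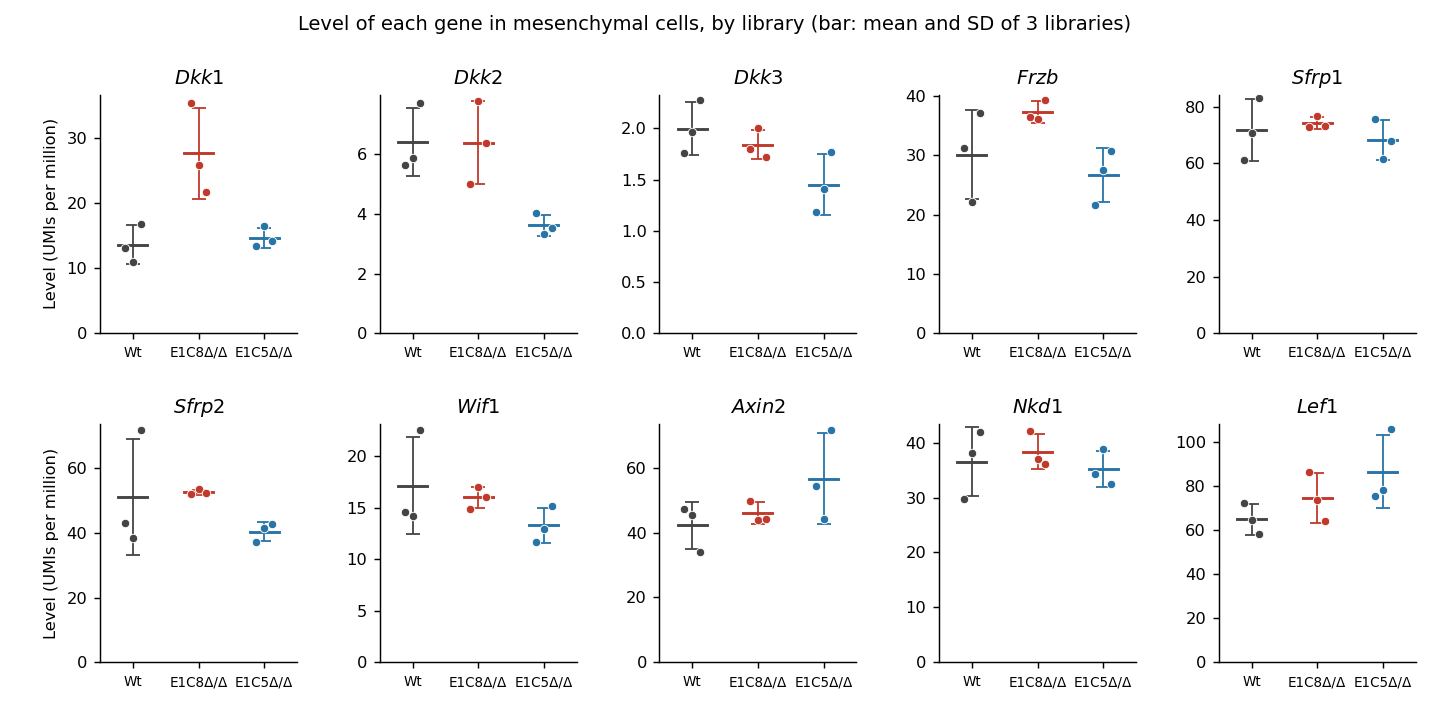
Level (CPM) of each gene in mesenchymal cells of the 9 libraries by genotype, with points for libraries and bars for the mean and SD of 3 libraries. The 3 *E1C8*Δ/Δ points of *Dkk1* (21.7–35.4 CPM) lie above all others, and the 3 *E1C5*Δ/Δ points of *Dkk2* (3.33–4.02 CPM) lie below all others.

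The level in the whole mesenchyme combines the proportions of the states with the levels within them. The mutants differed in proportions, with for example 16.1% ± 4.1 (SD, n = 3) of mesenchymal cells C1-like in Wt, against 8.25% ± 2.3 for *E1C8*Δ/Δ and 4.67% ± 2.4 for *E1C5*Δ/Δ. For a weighted level, each state counted by its mean share of mesenchymal UMIs in Wt, not of cells, with unassigned cells included. *Dkk1* in *E1C8*Δ/Δ then stayed at log2 0.98 over Wt, against 1.02 for the same cells at their own shares. The UMI shares alone, with Wt levels, gave 0.20. For *Dkk2* in *E1C5*Δ/Δ the corresponding values were −1.04 at Wt shares, −0.82 at their own and 0.29 from shares alone. For *Lef1* in *E1C5*Δ/Δ they were 0.36, 0.41 and 0.07. These values describe the gated states, and the part of the shares in the differences was not tested.

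The share of mesenchymal cells with at least 1 UMI was compared after thinning each cell to 10000 UMIs, which 34343 of the cells allowed. *Dkk1* was found in 6.01%, 5.56% and 8.999% of Wt cells, 10.79%, 11.7% and 10.4% of *E1C8*Δ/Δ cells and 6.46%, 7.68% and 6.91% of *E1C5*Δ/Δ cells. The shares in *E1C8*Δ/Δ were all above those in the other genotypes, and the thinned erythroid cells had 0–1.28%. *Dkk2* was found in 4.03%, 4.63% and 7.26% of Wt cells and 3.38%, 2.97% and 2.94% of *E1C5*Δ/Δ cells. With both mutants together against Wt, 0 of 10 members passed an exact two-sided permutation test at 0.05 (84 splits, smallest possible p 0.0119), and the lowest p was 0.0595 for *Lef1*. Without thinning the *Dkk1* shares were 12.2–16.9% for Wt, 16.1–20.9% for *E1C8*Δ/Δ and 13.6–14.7% for *E1C5*Δ/Δ.

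Within the states, *Dkk1* was again the member called most often in *E1C8*Δ/Δ. Its fitted change against Wt was above 0 in 11 of 11 states and passed in 4 of them, M3-like, M4-like, P2-like and P4-like. In P2-like cells it measured 56.3, 48.0 and 31.4 CPM in Wt and 237.8, 112.8 and 107.5 CPM in *E1C8*Δ/Δ, with *E1C5*Δ/Δ between them at 66.7, 93.2 and 68.0 CPM. The *E1C8*Δ/Δ change was 3.11-fold (log2 1.63 ± 0.26, edgeR adjusted p = 0.00596), and the highest value came from the 32 P2-like cells of *E1C8*Δ/Δ replicate 1. The call remained whichever library was removed, with estimates of 1.27–1.83.

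In *E1C5*Δ/Δ the fitted change of *Dkk1* against Wt was below 0 in 7 of 11 states (down to −1.27 in M1-like cells, not called) and passed in P4-like cells alone. In P4-like cells, the state with *Hoxa13*, *Dkk1* rose in both mutants. The values were 5.92, 6.67 and 13.8 CPM in Wt, 30.8, 29.9 and 25.2 CPM in *E1C8*Δ/Δ and 23.3, 13.8 and 22.1 CPM in *E1C5*Δ/Δ. All mutant libraries were above all Wt libraries, although *E1C5*Δ/Δ replicate 2 exceeded Wt replicate 3 only narrowly (13.84 and 13.77 CPM). The changes were log2 1.87 ± 0.26 in *E1C8*Δ/Δ (adjusted p = 0.00115) and 1.37 ± 0.25 in *E1C5*Δ/Δ (adjusted p = 0.0159). The *E1C5*Δ/Δ call was lost without Wt replicate 1, Wt replicate 2, *E1C5*Δ/Δ replicate 1 or *E1C5*Δ/Δ replicate 3, and with sex as a covariate. In M4-like cells *Dkk1* rose from 1.43, 1.45 and 1.41 CPM to 4.03, 7.88 and 5.83 CPM in *E1C8*Δ/Δ (log2 2.15 ± 0.31, adjusted p = 0.00373). These Wt values lie little above the 0.122–1.02 CPM of erythroid cells, so the size of this rise is uncertain. In M3-like cells the values were 0.932, 0.603 and 0.669 CPM in Wt and 1.80, 5.51 and 1.92 CPM in *E1C8*Δ/Δ (log2 2.21 ± 0.45, adjusted p = 0.0118), where the Wt values were within the range of erythroid cells, so that this is a change over background. There *Dkk1* may have passed the filter on low counts mainly through the *E1C8*Δ/Δ libraries, so this call is not independent support. The rise in M3-like cells was 1.39 and not called without *E1C8*Δ/Δ replicate 2, and was also lost without Wt replicate 2. The summed level of the 5 mesenchymal markers moved with *Dkk1* in all 4 states. It was 1052–1076 CPM in Wt, 1268–1359 CPM in *E1C8*Δ/Δ and 1307–1482 CPM in *E1C5*Δ/Δ in P4-like cells. In *E1C8*Δ/Δ against Wt it was 1766–1937 and 1542–1762 CPM in P2-like, 1655–1871 and 1366–1530 CPM in M4-like and 1502–1788 and 1365–1461 CPM in M3-like cells, and its part in the results was not tested. The 9 epithelial markers summed to 6.80–8.31 CPM in P2-like cells of *E1C8*Δ/Δ against 3.84–5.19 CPM in Wt, but overlapped between these groups in the other 3 states. In M2-like cells, the state with the highest Wt mean of *Dkk1*, the *E1C8*Δ/Δ values of 27.5, 61.4 and 56.0 CPM overlapped with Wt, and the fitted change was 0.10.

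**Figure D4:**
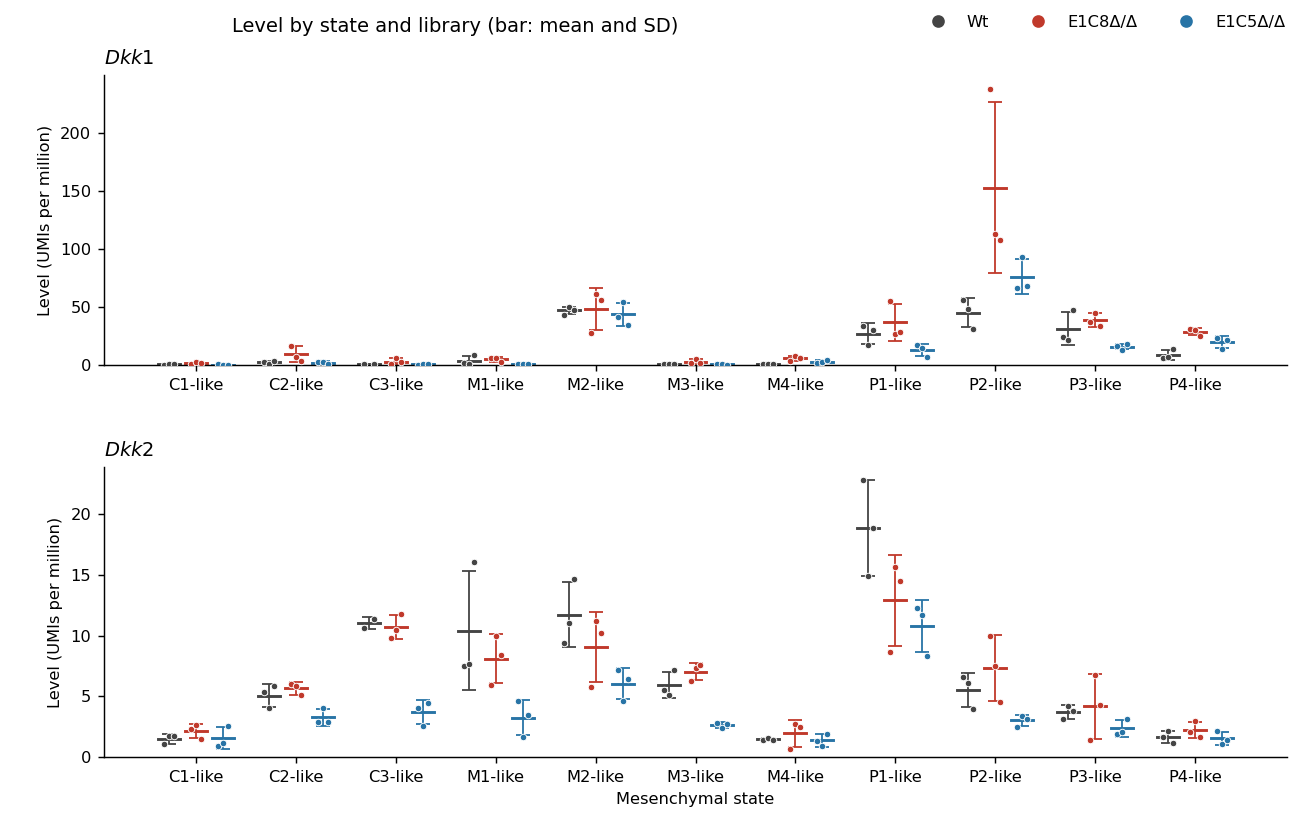
Level (CPM) of *Dkk1* and *Dkk2* in each mesenchymal state, with points for libraries and bars for the mean and SD of each genotype. *Dkk1* is above Wt in P2-like cells of *E1C8*Δ/Δ (107.5–237.8 CPM) and in P4-like cells of both mutants, and *Dkk2* of *E1C5*Δ/Δ is below Wt in C3-like and M3-like cells.

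*Frzb* was the other member whose fitted *E1C8*Δ/Δ change was above 0 in 11 of 11 states, and it passed in M1-like cells, with 9.02, 7.17 and 14.2 CPM in Wt and 23.3, 19.1 and 18.9 CPM in *E1C8*Δ/Δ (log2 1.07 ± 0.20, adjusted p = 0.0105). That call was lost without Wt replicate 2 or *E1C8*Δ/Δ replicate 2. *E1C8*Δ/Δ against Wt thus called 5 of 110 tests of members (*Dkk1* in 4 states and *Frzb* in 1), all higher, against 4.51% of all features.

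In *E1C5*Δ/Δ against Wt, 9 of 110 tests were called, 5 higher and 4 lower, against 0.587% of all features. *Dkk2* was lower in C3-like cells, at 4.06, 2.60 and 4.45 CPM against 10.67 and 11.4 CPM in 2 Wt libraries (log2 −1.48 ± 0.20, adjusted p = 0.0482). It was lower in M3-like cells, at 2.80, 2.40 and 2.73 CPM against 5.54, 5.10 and 7.14 CPM (log2 −1.06 ± 0.19, adjusted p = 0.0112), a call lost without *E1C5*Δ/Δ replicate 3. In C3-like cells the call was lost when Wt replicate 2, *E1C5*Δ/Δ replicates 2 or 3, or any *E1C8*Δ/Δ library was left out.

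*Wif1* went both ways in *E1C5*Δ/Δ. It was lower in M1-like cells, at 5.42, 8.72 and 6.16 CPM against 19.5, 15.9 and 42.2 CPM in Wt (log2 −1.90 ± 0.30, adjusted p = 0.0119), and in M3-like cells (−0.72 ± 0.17, adjusted p = 0.0438). It was higher in P4-like cells, its lowest Wt state, at 4.28, 9.13 and 8.37 CPM against 2.54, 1.94 and 3.65 CPM (1.58 ± 0.32, adjusted p = 0.0259). The M1-like call was lost without *E1C5*Δ/Δ replicates 1 or 3, and the M3-like call in 7 of the 9 fits that left out 1 library. The P4-like call was lost without Wt replicates 1 or 2 or *E1C5*Δ/Δ replicates 2 or 3, and with called doublets kept.

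*Lef1* was higher in *E1C5*Δ/Δ in C1-like cells (36.8, 39.0 and 43.7 CPM against 31.2, 30.1 and 24.9 CPM, log2 0.50 ± 0.12, adjusted p = 0.0479) and in M4-like cells (68.4, 69.8 and 91.05 CPM against 55.5, 49.6 and 50.5 CPM, log2 0.57 ± 0.10, adjusted p = 0.0185). The first call was lost in 8 of the 9 fits that left out 1 library, and the second without Wt replicates 2 or 3. The summed mesenchymal markers of the M4-like gate were also higher in *E1C5*Δ/Δ (1572–1752 CPM) than in Wt (1366–1530 CPM), and their part was not tested. *Axin2* rose 2.00-fold in P4-like cells, from 53.0, 44.99 and 34.0 CPM in Wt to 96.4, 64.8 and 102.9 CPM in *E1C5*Δ/Δ (log2 1.00 ± 0.17, adjusted p = 0.0106), and this call remained whichever library was left out but not with embryo sex as a covariate or with signature genes that differ in the mutants left out of the gates. The P4-like state of *E1C5*Δ/Δ therefore held higher calls of *Dkk1*, *Wif1* and *Axin2*, whereas its *Axin2* values for *E1C8*Δ/Δ (45.5, 43.7 and 55.5 CPM) overlapped with Wt. The mesenchymal markers of this gate were also higher in both mutants, as given above for *Dkk1*.

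The direct comparison of *E1C8*Δ/Δ with *E1C5*Δ/Δ called 20 of 110 tests, 17 higher and 3 lower, against 4.96% of all features. *Frzb* was higher in *E1C8*Δ/Δ in 6 states (C1-like, C3-like, M1-like, M3-like, M4-like and P3-like, log2 0.56 to 1.26), *Dkk1* in 5 (log2 0.99 in M4-like and 1.25 in P3-like cells, and C1-like, C3-like and M3-like cells) and *Dkk2* in 4 (C3-like, M1-like, M3-like and P2-like, log2 1.11 to 1.44). *Sfrp1* in P4-like and *Wif1* in M1-like cells were higher as well, and *Lef1* in M2-like and M4-like cells and *Axin2* in P4-like cells were lower in *E1C8*Δ/Δ. In C1-like, C3-like and M3-like cells of *E1C5*Δ/Δ *Dkk1* measured 0.238–1.39 CPM, close to the erythroid level, so these are differences over background and no size is given. In these states *Dkk1* may have passed the filter on low counts mainly through *E1C8*Δ/Δ libraries. For *Dkk1* in P3-like cells the values were 36.8, 45.3 and 33.7 CPM in *E1C8*Δ/Δ and 16.4, 13.5 and 18.1 CPM in *E1C5*Δ/Δ, with Wt at 24.5, 21.6 and 47.5 CPM overlapping with *E1C8*Δ/Δ only. For *Dkk2* in M3-like cells the values were 6.28, 7.31 and 7.55 CPM and 2.80, 2.40 and 2.73 CPM. These 2 calls and that of *Dkk2* in C3-like cells held whichever library was removed, and each of the other 17 was lost without at least 1 library. The 2 contrasts with Wt and this one share libraries, so their calls are not independent.

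Of the 39 calls within states over the 4 contrasts, 6 were kept in every alternative fit that could be made. They were *Dkk1* in M4-like, P2-like and P4-like cells of *E1C8*Δ/Δ against Wt, *Dkk1* in P3-like cells of *E1C8*Δ/Δ against *E1C5*Δ/Δ, and *Dkk2* in C3-like and M3-like cells of the same contrast. With embryo sex as a covariate 18 of the 39 were lost, including all 5 for both mutants together and all 9 of *E1C5*Δ/Δ against Wt. For both mutants together against Wt, 5 of 110 tests were called against 0.798% of all features. They were *Dkk1* in M4-like (1.66), P2-like (1.19) and P4-like cells (1.62), and *Wif1*, lower in M1-like (−1.18) and higher in P4-like cells (1.35). *Wif1* was called in these 2 states in *E1C5*Δ/Δ but not in *E1C8*Δ/Δ against Wt.

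**Figure D5:**
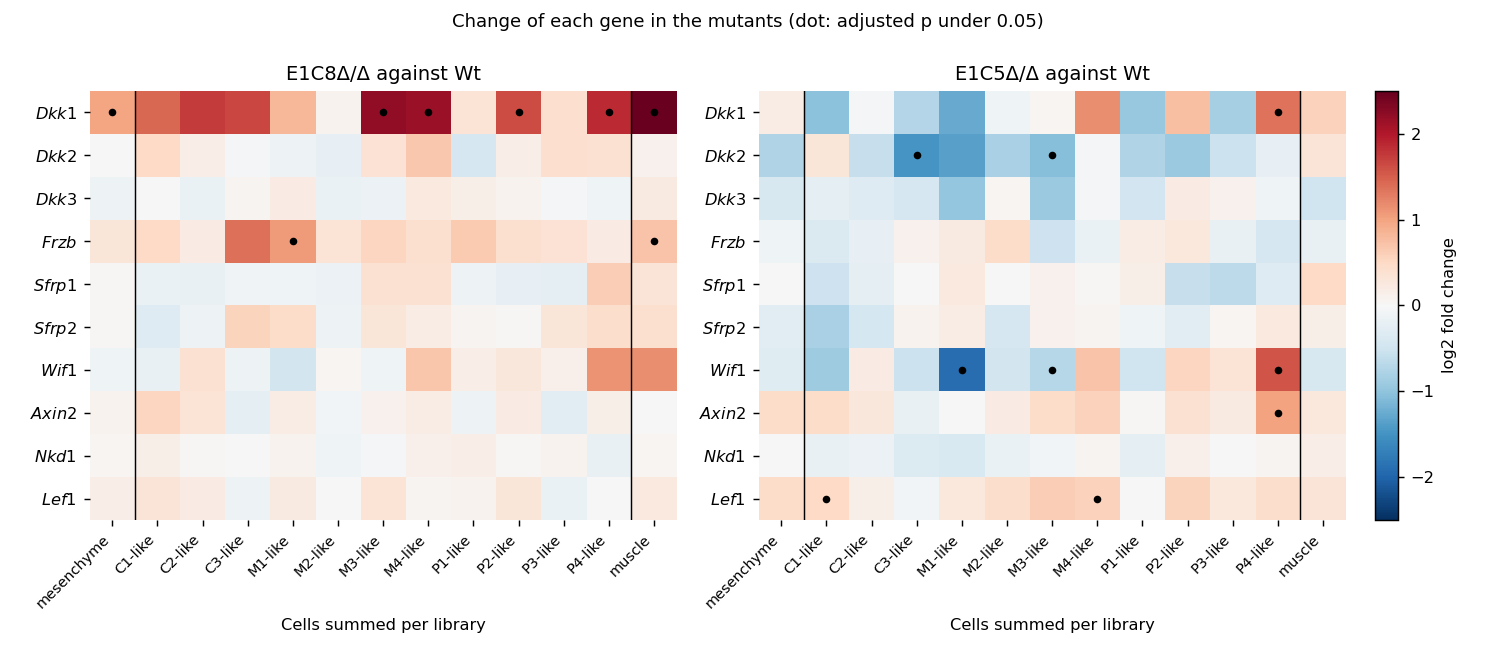
Heat maps of the log2 fold change of each gene (rows) against Wt in whole mesenchyme, 11 mesenchymal states and muscle (columns), for *E1C8*Δ/Δ on the left and *E1C5*Δ/Δ on the right, with a dot where the adjusted p was under 0.05. The *Dkk1* and *Frzb* rows are above 0 in every state of *E1C8*Δ/Δ, and the *Dkk2* row is below 0 in 10 of 11 states of *E1C5*Δ/Δ.

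Whether the mutant effect differed between states was tested directly, as the effect of both mutants in 1 state minus the mean effect in the other states. This called 3 of 110 tests of members, against 0.257% of all features, *Sfrp2* in C1-like cells and *Wif1* in M1-like and P4-like cells. *Sfrp2* measured 61.7, 62.2 and 128.7 CPM in C1-like cells of Wt, 56.3, 69.9 and 69.2 CPM in *E1C8*Δ/Δ and 47.0, 42.1 and 48.2 CPM in *E1C5*Δ/Δ. Its relative change was −0.52 ± 0.10 (adjusted p = 0.00484) and −0.40, not called, without Wt replicate 3. The *Dkk1* effects of single states, with both mutants pooled, did not pass this test. A rise of *Dkk1* in both mutants together is thus not shown to be particular to the P2-like or P4-like state. Whether the *E1C8*Δ/Δ effect by itself differed between states was not tested.

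In muscle progenitors, 2 members were called in *E1C8*Δ/Δ against Wt (4.90% of all features) and the same 2 against *E1C5*Δ/Δ (5.09%), all higher. *Dkk1* measured 0.458, 0.732 and 0.612 CPM in Wt muscle, 2.40, 4.83 and 2.59 CPM in *E1C8*Δ/Δ and 0.687, 0 and 1.49 CPM in *E1C5*Δ/Δ. *Frzb* measured 15.5, 15.6 and 14.99 CPM in Wt, 34.3, 21.1 and 25.7 CPM in *E1C8*Δ/Δ and 12.6, 13.6 and 13.9 CPM in *E1C5*Δ/Δ. The *E1C8*Δ/Δ libraries were above all others for both genes, with changes against Wt of 2.48 ± 0.53 for *Dkk1* (adjusted p = 0.0191) and 0.70 ± 0.15 for *Frzb* (adjusted p = 0.0198). The Wt values of *Dkk1* lay within the 0.122–1.02 CPM of erythroid cells, which are read as background, so its fold change is one over background and not a measured change of Wt expression. At these levels *Dkk1* may have passed the filter on low counts through the *E1C8*Δ/Δ libraries alone, so its calls in muscle are not independent support. The summed level of the 5 mesenchymal markers in the muscle gate moved with them, at 209.9–254.5 CPM in Wt, 286.2–488.4 CPM in *E1C8*Δ/Δ and 208.7–237.7 CPM in *E1C5*Δ/Δ, and its part in the result was not tested. The 9 epithelial markers in this gate moved too, at 3.37–5.22 CPM in Wt, 9.37–11.2 CPM in *E1C8*Δ/Δ and 1.46–5.22 CPM in *E1C5*Δ/Δ. In erythroid cells the *E1C8*Δ/Δ estimate of *Frzb* against Wt was also above 0 (log2 1.64 ± 0.58, edgeR adjusted p = 0.732, not called). *Dkk1* lost its call without Wt replicate 1 or *E1C8*Δ/Δ replicate 2, and *Frzb* without Wt replicate 1, *E1C8*Δ/Δ replicate 1 or *E1C8*Δ/Δ replicate 3. With embryo sex as a covariate both calls against Wt were lost (*Dkk1* 1.87, adjusted p = 0.157, and *Frzb* 0.76, adjusted p = 0.0882).

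*Dkk2*, which was higher in muscle than in any other lineage, measured 32.5, 32.0 and 29.1 CPM in Wt muscle, 45.5, 28.0 and 34.96 CPM in *E1C8*Δ/Δ and 33.2, 33.5 and 49.0 CPM in *E1C5*Δ/Δ. The *E1C5*Δ/Δ libraries lay just above Wt there, in contrast to mesenchyme, without passing the test, and the *E1C8*Δ/Δ libraries overlapped with both. No member was called by edgeR in muscle of *E1C5*Δ/Δ against Wt (1.12% of all features) or of both mutants against Wt (1.35%). At an unadjusted p under 0.05 there were 1 member against 9.15% of all features in the first and 2 members against 15.0% in the second. In epithelium, endothelium and erythroid cells no member was called in any contrast by edgeR, where 0.0229% of all feature tests passed. Each of the 4 contrasts tested 7 members in epithelium, 5 in endothelium and 6 in erythroid cells. Of these tests 20 had an unadjusted p under 0.05, a larger share than the 6.36% of all feature tests, in contrasts that share libraries. Among them were tests of *Frzb*, *Sfrp1* and *Sfrp2* in erythroid cells and of *Sfrp1* in endothelium, at levels read as background. The larger share is therefore not read as a result about expression of the members. DESeq2 made 4 calls over these lineages and muscle together, and its share over all features is not given. Over muscle and these lineages, 112 of the 160 tests of members passed the filter on low counts.

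The other genes of the WNT pathway were counted in 3 lists for the mean of both mutants against Wt in mesenchyme. In this contrast 2.31% of all features were called (116 higher and 259 lower of 16202), and the called shares of the lists are read against it. Of 20 other secreted or membrane inhibitors, 16 were tested and 1 was lower, with a median log2 fold change of −0.08 against −0.01 over all features. *Shisa2*, which retains Frizzled receptors inside the cell, measured 20.1, 15.1 and 17.9 CPM in Wt and 11.6–14.5 CPM in the 6 mutant libraries (log2 −0.43 ± 0.09, adjusted p = 0.033). Of 21 other feedback genes, transcription factors and targets, 1 was higher and 3 were lower (4 of 21, against the 2.31% of all features), with a median of −0.05. The lower ones were the TCF factors *Tcf7l2* (186.8–218.2 CPM in Wt and 91.7–137.7 CPM in the mutants, log2 −0.76 ± 0.10) and *Tcf7l1* (68.1–78.0 and 45.4–57.6 CPM, −0.45 ± 0.09), and *Fgf9* (3.67–5.44 and 0.900–2.70 CPM, −1.46 ± 0.16), which also served as a marker of C1-like and ridge cells. The higher one was *Bambi*, a BMP pseudoreceptor, at log2 0.38 ± 0.07, whose *E1C5*Δ/Δ libraries (38.3–44.5 CPM) overlapped with Wt (37.2–41.8 CPM), so that it fell outside the rule for naming and is given after its values were seen.

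Of 42 ligands, R-spondins, receptors and core components, 39 were tested, 2 were higher and 1 was lower (3 of 39, against the 2.31% of all features), with a median of −0.01. The receptor gene *Fzd4* fell from 5.08–6.18 CPM in Wt to 2.69–4.71 CPM in the mutants (log2 −0.66 ± 0.12, adjusted p = 0.0194). *Rspo2*, which encodes a secreted enhancer of WNT signalling, rose from 8.20–8.59 CPM to 9.31–13.5 CPM (0.52 ± 0.10, adjusted p = 0.0257). The second higher gene, *Rspo4*, likewise named after its values were seen, overlapped between Wt and *E1C8*Δ/Δ (0.74 ± 0.17, adjusted p = 0.0473). The *Lef1* estimate in this contrast was 0.31 ± 0.11 (edgeR adjusted p = 0.143). Of the TCF/LEF genes, *Tcf7l1* and *Tcf7l2* were thus called lower, and *Lef1* and *Tcf7* were not called. Calls of the pathway lists are given from the main fit only. Unlike the members, these genes are not given with embryo sex as a covariate, with libraries left out or at Wt shares of the states. All Wt embryos were male, and C1-like cells, for which *Fgf9* is a marker, made up a smaller share of mutant mesenchyme. Whether sex or state proportions contribute to the list calls was not tested.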

How the data were processed

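Single-cell RNA of forelimb buds was measured in 9 libraries (3 per genotype). Per the labels and the methods, the authors made the deposited count matrices (UMI counts per gene and barcode, not normalized) with Cell Ranger 6.0.1 against mm10. They used Seurat downstream (4.3.0.1 per the labels, a later version per the methods), and its output is not used here. The cell filter asked for over 2500 genes, below 200000 UMIs and less than 10% mitochondrial UMIs. Doublets were called at 0.8% per 1000 barcodes, which marked 1.99–22.8% of cells by library, and removed. Lineages were gated on fixed numbers of markers (3 of 5 for mesenchyme) and mesenchymal states by the highest mean score of the signature genes, at least 0.5. Counts were summed per library and gate with at least 20 cells and tested with edgeR 4.0.16 (R 4.3.3, quasi-likelihood, TMM, filterByExpr, autosomal genes, two-sided), with Benjamini-Hochberg adjusted p-values over all features of a fit and a threshold of 0.05. Comparisons of gates and the test of effects between states carried the library as a block. Log2 fold changes are given with their SE. The fitting functions, but not the other steps, were tested on simulated counts in which 200 genes were changed by log2 1. In mesenchyme edgeR recovered 78% of them for both mutants against Wt and 71.5% for *E1C8*Δ/Δ against Wt. A gene that was not called can therefore still differ. Members were matched to GENCODE M21 and to RefSeq promoters.

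Named were all 10 members, *Grem1*, and genes of the pathway lists that passed in the mean of both mutants without overlap between mutant and Wt libraries. The members and lists were chosen with earlier results of these data known. Library totals were 26620760–500559729 UMIs, and intervals cover counting error only. Each library is 1 embryo, and replicate numbers did not pair the libraries. Alternatives were DESeq2 1.42.0, no filter on low counts, doublets or mixed cells kept, thinned cells, other cell and gate filters, changed signature genes left out of the gates, a replicate block, embryo sex as a covariate, and each library left out in turn. X- and Y-linked genes were left out because embryos of both sexes were used.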

Additional observations from a re-analysis of the deposited data

Results flagged for a closer look

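In 3 cases the mutant effect (mean of both mutants against Wt) in 1 mesenchymal state differed from the mean effect in the other states, by an interaction term in the edgeR quasi-likelihood test with the library as block (3 of 110 tests of members called, 29 at an unadjusted p under 0.05, 0.257% of all features called).

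For *Sfrp2* in C1-like cells the difference was −0.52 ± 0.10 on the log2 scale (adjusted p = 0.00484). The value of Wt replicate 3 (128.7 CPM) was far above those of Wt replicates 1 and 2 (61.7 and 62.2 CPM), and without that library the difference was −0.40 and not called (adjusted p = 0.118).

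For *Wif1* in M1-like cells the difference was −1.02 ± 0.20 (adjusted p = 0.0051). After thinning, *Wif1* was found in 11.9%, 12.3% and 24% of M1-like cells of Wt and 4.78%, 9.09% and 5.37% of those of *E1C5*Δ/Δ. In *E1C8*Δ/Δ the shares were 14.3%, 14.8% and 12.8% and overlapped with Wt, so a fall was seen in *E1C5*Δ/Δ only. The values that follow are again those of the difference between states. The difference was −0.83 and not called without Wt replicate 3 (adjusted p = 0.306), and the call was also lost without Wt replicate 1 or *E1C5*Δ/Δ replicates 1 or 3, with called doublets kept and with a margin of 0.5 asked between the state scores.

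For *Wif1* in P4-like cells the difference was 1.50 ± 0.37 (adjusted p = 0.015), although *E1C8*Δ/Δ alone was not called against Wt in this state. With called doublets kept the difference was 0.58 and not called (adjusted p = 0.482), and the call was lost without Wt replicates 1 or 2 or *E1C5*Δ/Δ replicates 2 or 3. The cause of these changes was not tested.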

How the results depend on the processing

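In mesenchyme 3 of 40 tests of members were called, against 6 with DESeq2, 6 with no filter on low counts and 1–5 when 1 library was left out (1 without *E1C8*Δ/Δ replicate 2, 5 without Wt replicate 3). Within the states 39 of 440 tests were called, against 103 with no filter, 21 with embryo sex as a covariate and 15–56 when 1 library was left out (15 without *E1C8*Δ/Δ replicate 2, 56 without Wt replicate 3). In the other lineages 4 of 112 tests were called, against 10 with no filter, where 160 tests were made, and 2–4 when 1 library was left out. For the mutant effect between states the 3 calls became 28 with no filter and 1–5 when 1 library was left out. Lineages against mesenchyme gave 38 calls, and 37–38 when 1 library was left out, and states against the others gave 92, and 89–92. The shares of cells gave 0 members, 2 without thinning, 1 with more than 1000 genes per cell and 0–2 when 1 library was left out. Over the 4 genotype contrasts the main fits called 1.51–9.78% of all features in mesenchyme, 0.587–4.96% within states and 1.12–5.09% in muscle. The share was 0.0229% in the other lineages and 0.257% for the effect between states. Shares over all features under the other settings are not given, so changes of these counts are not read as results about the members. The causes were not tested. No result changed its direction past the threshold.

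The replicate numbers did not pair the libraries, since the deviations of same-numbered libraries correlated at −0.30 to 0.16 and 1 of 9 libraries correlated best with its own number. With the replicate block the calls were 2 of 40 in mesenchyme, 27 of 440 within states and 2 of 112 in the other lineages.

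Depth limits the small libraries most. *E1C8*Δ/Δ replicate 1 gave 28–57 cells per state, C3-like cells of Wt replicate 3 were too few to use, and epithelium reached 20 cells in 6 libraries. All Wt embryos were male, so sex and genotype are partly confounded.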

Other observations

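The remaining members were also counted in the pooled epithelial cells. In the 82 ridge cells *Dkk2* and *Dkk3* had 1 UMI each, and *Nkd1* measured 15.9 CPM (95% Poisson interval 11.4–21.5), against 7.03 CPM (5.68–8.60) in the 512 other epithelial cells. *Wif1* measured 5.80 CPM (3.25–9.57) and 1.12 CPM (0.628–1.85), and *Frzb* 13.2 CPM (9.11–18.4) and 5.83 CPM (4.61–7.28), while *Sfrp2* measured 8.13 CPM (5.03–12.4) and 11.3 CPM (9.56–13.2). The ridge cells came from 9 libraries with 1–24 cells each, so these values have no replicate check.

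Between the mutants 9.78% of all features were called in whole mesenchyme, against 9.39% for *E1C8*Δ/Δ and 1.51% for *E1C5*Δ/Δ against Wt, and the pathway lists are read beside these shares. Of the 16 other inhibitors tested, 4 were higher and 1 was lower in *E1C8*Δ/Δ than in *E1C5*Δ/Δ (edgeR, whole mesenchyme), with a median log2 difference of 0.36, against 0.00 over all features. The called genes were *Shisa3*, *Notum*, *Sostdc1*, *Kremen2* and *Apcdd1*, which were named after the values were seen. Of the 39 ligands, R-spondins, receptors and core components tested, 5 were higher and none was lower between the mutants, with a median of 0.12, and 4 of the 39 were called in each mutant against Wt. The 5 were *Wnt6*, *Wnt11*, *Wnt9a*, *Wnt3* and *Fzd8*, also named after the values were seen. The summed epithelial markers of the mesenchymal gate were likewise higher in *E1C8*Δ/Δ (7.26–9.55 CPM) than in *E1C5*Δ/Δ (4.13–6.70 CPM). The part of epithelial RNA in these calls was not tested. Of the 21 other feedback genes, transcription factors and targets, 2 were higher and 3 were lower between the mutants, and the same numbers were called in *E1C8*Δ/Δ against Wt.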
